A study of Mus musculus with 15 samples.

Results

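The genes of mouse chromosome 8 were followed in embryonic stem cells (ESCs) of a pair of lines that lose the transcription factor OCT4 by different routes. A gene was selected when it lay on chromosome 8 and held 1500 or more reads summed over the 15 libraries, and 11 genes were left out by name (*Nkd1*, *Sall1*, *Cdh1*, *Cdh3*, *Junb*, *Klf2*, *Nqo1*, *Hmox1*, *Gsr*, *Dusp4* and *Fgfr1*). This left 676 of the 2537 chromosome 8 genes and of the 48709 genes in the count files, and the remaining 1850 chromosome 8 genes lay under the minimum. The chromosome was singled out because its genes stood lower in one line than in the other, so that difference is described here without a test. *Plat*, *Il34* and *Gm2694* stood just inside the minimum with 1508, 1528 and 1553 reads, and *Dpep3*, *Hhip* and *Gnao1* just outside it with 1488, 1483 and 1476.

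CreER ESCs carry the genotype Oct4Fl/- with a CAG CreER transgene on a mixed 129SV and C57BL/6 background. 4-OHT (500 nM) activates the recombinase, which deletes the floxed *Pou5f1* allele opposite a null allele, and 2 replicate libraries were made at each of 0, 12, 18, 24 and 36 h. O4AID ESCs descend from the ZHBT line on a 129SV background, lack endogenous *Oct4*, keep a TetOFF *Oct4* transgene silent under doxycycline, and live on piggyBac transgenes in which the CAG promoter drives an *Oct4* fused to an auxin-inducible degron and the plant protein Tir1. The auxin IAA (500 µM) leads to degradation of the fusion protein, and a single library (n = 1) covers each of the times 0, 1.5, 6, 10 and 24 h. Both lines grew in N2B27 with PD03, Chiron and LIF, and doxycycline is named for the ZHBT cells alone.

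Mouse chromosome 8 carries housekeeping genes of replication, RNA processing, mitochondria and secretion beside regulators such as *Zfp42* (Rex1), a marker of naive pluripotency. Cultured mouse ESCs are known to gain or lose whole chromosomes, with gain of chromosome 8 among the recurrent changes, and a change in the number of copies of a chromosome tends to shift the RNA of many of its genes together by a similar factor. DNA copy number was not measured in these samples. Line, strain, transgenes, treatment and sequencing depth go together in this design and cannot be told apart in any difference between CreER and O4AID.

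Counted reads numbered 21655083 to 30774618 per CreER library and 40537353 to 48719670 per O4AID library, so single genes were counted more precisely in O4AID. Levels are given as CPM (read counts scaled to library size, with TMM factors). *Pou5f1* stood at 321 and 317 CPM in the CreER libraries at 0 h and at 112 and 123 at 36 h. In O4AID it stood at 633 to 866 CPM. That line lacks endogenous *Oct4*, so reads of its *Oct4* transgenes are counted under this gene, and IAA acts on the protein. The summed level of 8 ESC markers was 2198 to 2533 CPM in CreER and 2206 to 6929 in O4AID, and that of 6 trophoblast markers 26.5 to 108 and 3.30 to 17.0. The 5 fibroblast markers summed to 8.12 to 9.83 CPM in CreER and 2.55 to 5.08 in O4AID, with *Postn* under 1 CPM in every library, and their part in the differences below was not tested. These are bulk samples, in which fewer cells of a type and less RNA per cell cannot be told apart. Nothing in the labels says that the replicate libraries came from separate cultures, so the p-values below may measure technical spread.

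A first pair of sequences shows what limits the reading of some genes. A processed pseudogene is a copy of a spliced mRNA that was inserted elsewhere in the genome, and its sequence can stay so near that of the parent gene that a short read matches both. *Rpl19* (chromosome 11, encoding a protein of the large ribosomal subunit) and its copy *Rpl19-ps11* on chromosome 8 (chr8:19492936-19493526 of GRCm38, plus strand) differed at 1 position over 591 aligned bases. The stretch shown covers coding bases 161 to 220 of *Rpl19*, 5′ to 3′ from GENCODE transcripts of GRCm38, with the base that differs in capitals.
Rpl19: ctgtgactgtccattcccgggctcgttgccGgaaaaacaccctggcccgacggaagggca
Rpl19-ps11: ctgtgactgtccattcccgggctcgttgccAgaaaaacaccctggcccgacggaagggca
Summed over libraries, CreER had 4076 reads on *Rpl19* and 123781 on *Rpl19-ps11*, while O4AID had 237349 on *Rpl19* and 498 on the copy. Which of this parent and its copy a read was counted for thus went with the line, and the level of a gene with such a copy is uncertain.

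Over the time courses the 676 genes stood lower in O4AID than in CreER, with a median difference of -0.37 (log2, after adding 0.5 CPM to each value). The 11358 genes of the other autosomes that passed the same minimum had a median of 0.23, which the scaling of the libraries sets in part, so that relative to them chromosome 8 stood at -0.60, or 0.66-fold. At 0 h alone the values were -0.37 and, relative to the other autosomes, -0.62. The first of these was -0.437 with RLE scaling, -0.402 with TMM without chromosome 8 and -0.575 with total-count scaling. Adjusted for gene length, level and transcript GC it was -0.581, -0.578 and -0.573, and over all times -0.556, -0.568 and -0.56. Relative to the other autosomes the adjusted values at 0 h were -0.614, -0.61 and -0.606. The adjustments thus moved the other autosomes as well. For comparison, a ratio of 2 to 3 is -0.58 on the log2 scale, and the cause of the difference was not tested. Of the 676 genes, 517 (76.5%) lay under the median of the other autosomes.

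All 5 O4AID libraries lay below all 10 CreER libraries for 346 genes (51.2%), where 26.8% of all 12538 genes past the minimum did so, and above them for 126 genes (18.6%) against 41.0%. At least 1.5-fold lower in O4AID were 267 genes (39.5%) against 22.3% of all genes, and at least 1.5-fold higher 97 genes (14.3%) against 32.5%. Relative to the other autosomes, 343 genes (50.7%) were at least 1.5-fold lower and 71 (10.5%) at least 1.5-fold higher, against 26.3% and 25.5% of the genes of the other autosomes. These shares were among the reasons for choosing the chromosome and nothing is read from them.

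Both quartiles were displaced. The lower quartile of chromosome 8 stood at -0.95 and that of the other autosomes at -0.41, a difference of -0.54, and the upper quartiles stood at 0.15 and 0.82, a difference of -0.67. The distance between the quartiles was 1.10 on chromosome 8 and 1.24 on the other autosomes. Further out the displacement was uneven, at -0.285 at the 10th percentile and -0.81 at the 90th. The minimum was set on the sum of both lines, and 39 genes passed it with a mean under 1 CPM in O4AID, 21 of them processed pseudogenes, while 5 passed with a mean under 1 CPM in CreER.

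**Figure D1:**
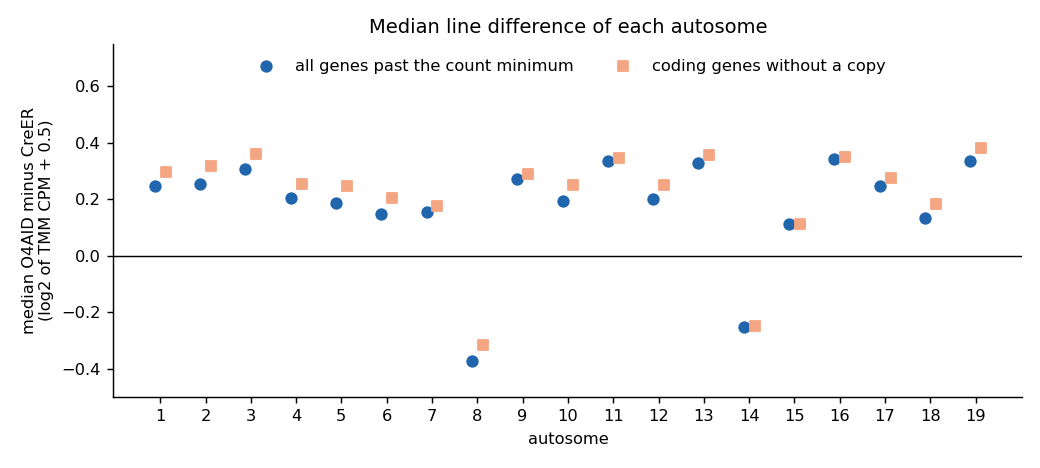
Median difference between the lines (O4AID minus CreER, log2 of CPM plus 0.5, over all times) for each of the 19 autosomes, with circles for all genes past the count minimum and squares for coding genes without a matched pseudogene copy. Chromosome 8 at -0.37 and chromosome 14 at -0.25 lie below 0 and the other autosomes at 0.11 or above.

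Among the 19 autosomes chromosome 8 had the lowest median. Chromosome 14 came next with -0.25 over 414 genes, which is -0.48 relative to the other autosomes, and chromosome 15 followed at 0.11. Chromosome 16 was the highest autosome at 0.34. Chromosome X stood at 0.05 and chromosome Y, with 10 genes past the minimum, at 4.39. Chromosome 14 differed in shape, since its quartiles stood at -0.99 and 0.66, and 64.7% of its genes lay under the median of the other autosomes against 76.5% of chromosome 8. The difference between chromosomes 8 and 14 was not tested.

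The position along the chromosome was examined in windows of 10 Mb. The median of each of the 13 windows lay below that of the other autosomes, from -0.38 (20 to 30 Mb, 56 genes) to -1.06 (the first 10 Mb, 31 genes). The share of genes under the median of the other autosomes ran from 66.7% (60 to 70 Mb, 36 genes) to 93.5% (the first 10 Mb). Elsewhere on the autosomes 115 of 225 windows with at least 10 genes (51.1%) lay below, and 24 of them, 4 on chromosome 14, stood at or below the highest chromosome 8 window. A running median over 21 neighbouring genes stayed below 0 at all 656 positions, between -1.31 and -0.01.

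**Figure D2:**
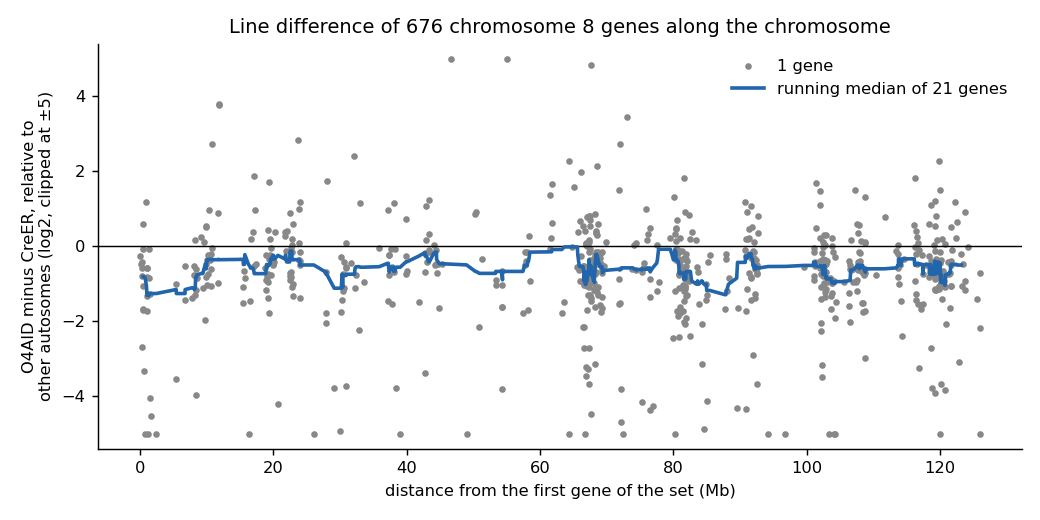
Difference between the lines relative to the other autosomes (log2, y axis) against the distance from the first gene of the set (Mb, x axis), with a point for each of the 676 genes and a line for the running median of 21 genes. The line lies below 0 throughout, from -1.31 to -0.01, and 20 genes beyond ±5 are drawn at ±5.

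Of the 13 genes nearest the window medians, 7 had every O4AID library below every CreER library and 6 overlapped. The share below was 51.2% over all members and 26.8% over all genes past the minimum. These 13 genes were picked by their line difference, so nothing is read from the count. *Xab2* (chr8:3608421-3621316, minus strand), a splicing and DNA repair factor in the window of the lowest median, stood at 181 to 193 CPM in the 10 CreER libraries (median 189) and at 113, 107, 107, 107 and 92.6 in O4AID at 0, 1.5, 6, 10 and 24 h. *Thap11* (chr8:105855132-105856950, plus strand), a regulator of ESC growth also named Ronin, stood at 58.2 to 67.8 CPM in CreER and at 43.4, 45.8, 47.7, 46.3 and 49.8 in O4AID. *Banp* (chr8:121949750-122029258, plus strand), which binds unmethylated CG motifs, stood at 55.1 to 62.6 CPM in CreER and at 43.8, 43.3, 40.03, 43.2 and 35.8 in O4AID. In each of these genes every O4AID library lay under every CreER library, with differences of -0.84, -0.41 and -0.51. *Slc25a4* (chr8:46206797-46211284, minus strand), the mitochondrial carrier of ADP and ATP, stood at 299.5 to 413 CPM in CreER and at 338, 319, 319, 293 and 246 in O4AID, a difference of -0.18. *Brf2* (chr8:27123364-27128680, minus strand), a factor of RNA polymerase III, stood at 17.9 to 21.3 CPM in CreER and at 18.5, 21.4, 17.7, 15.7 and 16.9 in O4AID, a difference of -0.13. The lines overlapped in both of the latter genes.

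The ends of the set did not behave alike. *Insr*, the insulin receptor and the first gene of the set (chr8:3122061-3279617, minus strand), stood at 34.6 to 44.6 CPM in CreER and 34.3 to 45.3 in O4AID, which overlap. The last gene, the lincRNA *Gm32856* (chr8:129263641-129282844, plus strand), stood at 16.3 to 22.7 CPM in CreER and 3.19 to 6.01 in O4AID, with a difference of -1.96.

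Coding genes for which no processed pseudogene was found made up 532 of the 676 genes (78.7%), and their median was -0.32, against 0.26 in 8933 such genes of the other autosomes, a distance of -0.58, and the quartiles stood 0.57 and 0.66 lower. All O4AID libraries lay below all CreER libraries in 265 of the 532 (49.8%), where 20.7% of such genes on the other autosomes did, and above them in 94 (17.7%) against 44.0%. A further 77 coding genes had 1 or more copies, 37 genes were processed pseudogenes and 30 were of other kinds.

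**Figure D3:**
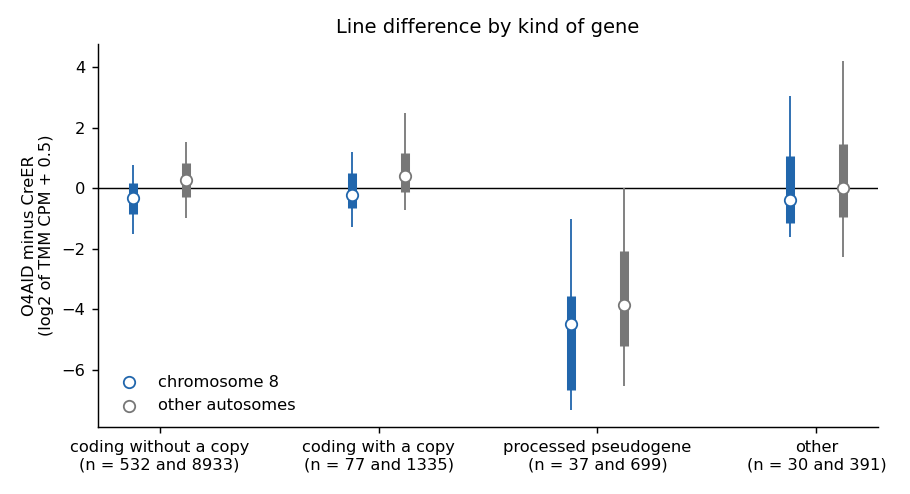
Difference between the lines (O4AID minus CreER, log2 of CPM plus 0.5) by kind of gene, for chromosome 8 in blue and the other autosomes in grey, with the median as a circle, the quartiles as a thick bar and the 10th to 90th percentiles as a thin line. Processed pseudogenes stand far below the other kinds on chromosome 8 (median -4.47) and elsewhere (-3.85).

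The 37 pseudogenes had a median of -4.47, and in 35 of them every O4AID library lay below every CreER library. Over all genes past the minimum 26.8% did so, and the share for pseudogenes elsewhere is not given here. The 699 pseudogenes of the other autosomes had a median of -3.85. Of these, 90.8% lay under the median of the other autosomes, against 97.3% of the 37, so the low level was not particular to chromosome 8. Pseudogenes held 5.70 to 6.50% of all reads in the CreER libraries and 1.25 to 1.52% in the O4AID libraries. The lowest 10 of the 676 genes were all pseudogenes, led by *Gm21399*, a copy of *Prdx1*, with 261 to 310 CPM in CreER and 0, 0.0238, 0, 0 and 0 in O4AID. A difference of -9.10 for this gene rests on the 0.5 CPM added before taking logs. *Rpl10-ps5*, a copy of *Rpl10*, was higher in every O4AID library, with 79.99 to 91.6 CPM in CreER and 172 to 201 in O4AID (1.14), and *Gm6284* overlapped. *Gm8730*, a copy of *Rplp0* and the member of highest level per kilobase, differed less than most, with 779 to 853 CPM in CreER and 602 to 719 in O4AID.

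For the 77 coding genes with copies the reads of the copies were added to those of the gene. The median moved from -0.24 to -0.37. It stood at -0.60 relative to all genes of the other autosomes, to which no reads of copies were added, so the sides are unlike. Coding genes with copies on the other autosomes had a median of 0.41 without the reads of their copies. *Rpl13*, a gene of the large ribosomal subunit, moved from 2.50 to 0.71. *Tom1*, an adaptor of endosomal sorting, moved from 1.72 to -0.11, *Nudt21*, a factor of mRNA 3′ end processing, from 1.41 to 0.05, and *Smarca5*, the ATPase of ISWI chromatin remodellers, from 0.28 to -0.99. *Vdac3*, a channel of the outer mitochondrial membrane with 1 read on its copy in CreER, stayed at 1.93.

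The difference was present at every level of expression. With the genes of chromosome 8 split into 3 equal parts by level, the distance of their median from that of other autosomal genes in the same range was -0.74, -0.57 and -0.56 from the lowest to the highest part. Split by gene length it was -0.66, -0.60 and -0.53, and split by the GC content of the transcripts -0.53, -0.64 and -0.69. These splits were chosen after values had been seen.

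Promoter sequence was read for 428 of the 676 genes that have an entry in RefSeq's table on GRCm38.p6, over the 250 bases before the start. The median promoter held 18 CG dinucleotides, against 6 over all 32851 promoters of the table, whose genes are not limited to those expressed here. Split into 3 parts by CG count, the genes had median differences of -0.31 (0 to 14 CG), -0.36 (14 to 21) and -0.39 (21 to 51). The motif GGGCGG, searched on both strands, was found in 64.0% of these promoters and 32.7% of all, TATAAA in 5.14% and 12.4%, and CCAAT in 36.7% and 33.8%. CG dinucleotides within GGGCGG were counted in both.

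The promoters shown belong to the coding genes without copies that stood furthest apart between the lines in each direction among those with an entry. Capitals mark CG dinucleotides, and each runs 5′ to 3′ on the strand of its gene up to the base before the start. *Zfp423* (chr8:87959596-87959845, minus strand) encodes a zinc finger factor of neural and fat cell development, and *Slc5a5* (chr8:70892758-70893007, minus strand) the sodium iodide symporter.
Zfp423: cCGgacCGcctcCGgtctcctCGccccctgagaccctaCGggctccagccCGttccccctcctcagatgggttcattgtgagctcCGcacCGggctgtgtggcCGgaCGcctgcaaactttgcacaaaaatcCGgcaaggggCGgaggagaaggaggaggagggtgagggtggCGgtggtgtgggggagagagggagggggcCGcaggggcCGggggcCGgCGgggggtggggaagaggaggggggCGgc
Slc5a5: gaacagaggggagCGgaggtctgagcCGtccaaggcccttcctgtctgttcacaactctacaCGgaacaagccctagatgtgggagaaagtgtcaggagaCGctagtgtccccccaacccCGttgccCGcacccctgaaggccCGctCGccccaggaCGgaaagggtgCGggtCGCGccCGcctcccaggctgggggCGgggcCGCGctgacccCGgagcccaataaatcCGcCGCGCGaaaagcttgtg
*B3gnt3* (chr8:71701801-71702050, minus strand) encodes a glycosyltransferase, and *D130040H23Rik* (chr8:69270854-69271103, plus strand) is named by its clone.
B3gnt3: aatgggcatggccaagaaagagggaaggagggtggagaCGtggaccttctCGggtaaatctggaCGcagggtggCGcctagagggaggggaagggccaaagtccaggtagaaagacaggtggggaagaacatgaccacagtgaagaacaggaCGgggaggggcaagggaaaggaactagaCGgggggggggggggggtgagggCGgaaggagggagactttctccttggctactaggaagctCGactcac
D130040H23Rik: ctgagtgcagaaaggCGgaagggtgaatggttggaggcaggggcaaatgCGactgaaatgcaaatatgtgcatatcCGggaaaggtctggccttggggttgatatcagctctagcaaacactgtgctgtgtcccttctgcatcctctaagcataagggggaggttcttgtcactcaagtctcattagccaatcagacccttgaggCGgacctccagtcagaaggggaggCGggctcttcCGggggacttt
The promoters of *Zfp423* and *Slc5a5* held 18 and 21 CG dinucleotides and those of *B3gnt3* and *D130040H23Rik* 8 and 6. These genes were picked by their line difference, and other genes far apart went the other way, so nothing is read from these counts. *Adcy7*, for example, had 5 CG at a difference of -3.906, and *Msmo1* 32 CG at 1.585.

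The median over the whole chromosome moved little over both time courses, while single windows moved more. Relative to CreER at 0 h and to the other autosomes, the median level of the 676 genes was between -0.014 and 0.022 in the 10 CreER libraries. In O4AID it was -0.62, -0.59, -0.63, -0.59 and -0.62 at 0, 1.5, 6, 10 and 24 h. The O4AID libraries thus spanned 0.044 and the CreER libraries 0.036, both small beside the distance of about 0.6 between the lines, and the groups did not overlap. The pooled SD of replicate libraries was 0.00789. By window, the O4AID level at 24 h was below that at 0 h in 9 of 13 windows, and the differences ran from -0.40 to 0.16. It went from -0.24 to -0.48 at 20 to 30 Mb, from -0.17 to -0.45 at 40 to 50 Mb and from -0.995 to -1.39 at 50 to 60 Mb. The largest SD of a window level was 0.189 over the 5 O4AID libraries and 0.045 over the 10 CreER libraries. Chromosome 14 was at -0.49, -0.49, -0.50, -0.52 and -0.54 in the same O4AID libraries.

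**Figure D4:**
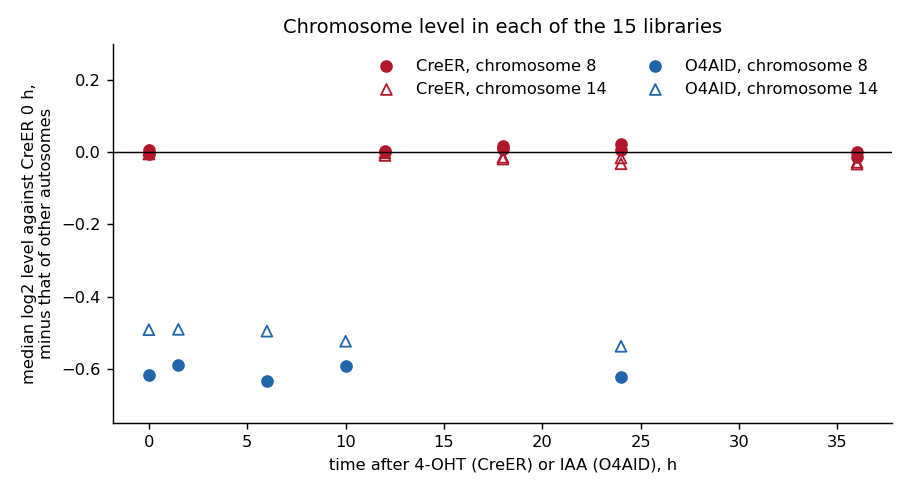
Median log2 level of chromosome 8 (circles) and chromosome 14 (triangles) in each library, relative to CreER at 0 h and to the other autosomes, against time after 4-OHT (CreER, red) or IAA (O4AID, blue). O4AID chromosome 8 stays between -0.63 and -0.59 and CreER between -0.014 and 0.022.

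The same was seen in the share of reads. Chromosome 8 took 5.38 to 5.87% of all counted reads in the CreER libraries and 4.15 to 4.28% in the O4AID libraries. Among autosomal coding genes without copies, the members took 6.64 to 6.76% in CreER and 4.66 to 4.77% in O4AID. Of the 676 genes, 608 (89.9%) were on the same side of the other autosomes' median at 0 h and at 24 h, and 86.8% of the genes of the other autosomes were.

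The lists of chromosome 8 genes by role were drawn up with earlier results of these data known, and 201 of their 215 genes were members. In 9 of the 10 lists the median stood at -0.27 or lower relative to the other autosomes. The 31 genes of RNA processing and translation stood at -0.76, with 27 under the median of the other autosomes, and the 19 genes of adhesion, matrix and cytoskeleton at -0.75 (14 under). Telomere and centromere proteins stood at -0.69 (8 of 11), signalling and transcription factors at -0.67 (20 of 25), chromatin regulators at -0.66 (15 of 17), replication and DNA repair at -0.60 (20 of 22) and ubiquitin and proteasome genes at -0.54 (14 of 15). Mitochondrial genes stood at -0.41 (14 of 19), genes of the secretory pathway and lysosome at -0.27 (17 of 24) and metabolic enzymes and transporters at -0.07 (10 of 18). The median over all chromosome 8 members was -0.60, and differences between lists were not tested. The counts of non-overlap given next stand beside 51.2% below and 18.6% above over all members and 26.8% and 41.0% over all genes past the minimum.

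In replication, *Mcm5*, a subunit of the replicative helicase, stood at 657 to 736 CPM in CreER (median 674) and at 504, 491, 473, 428 and 322 in O4AID from 0 to 24 h. All O4AID libraries lay below all CreER libraries for 12 of the 22 genes of this list. They lay above for 2, *Neil3*, a DNA glycosylase (1.15), and *Rfwd3*, a ubiquitin ligase of fork repair (0.37). *Rfwd3* has a copy, which held 31.24% of the reads of both in CreER and 0.94% in O4AID. With the reads of the copy added its difference was -0.159. In RNA processing, *Sf3b3*, a subunit of the SF3b splicing complex, stood at 648 to 730 CPM in CreER and at 385, 348, 362, 359 and 306 in O4AID, a difference of -0.97. All O4AID libraries lay below for 20 of these 31 genes, and above for 4, among them *Rpl13*, *Nudt21* and *Polr2c*, which are genes with copies.

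The secretory genes went both ways. *Calr*, the calcium-binding chaperone calreticulin of the endoplasmic reticulum (chr8:84841850-84846934, minus strand), was at 1041 to 1180 CPM in CreER and at 748, 750.4, 902, 850 and 645 in O4AID. *Lamp1*, an abundant protein of the lysosomal membrane (chr8:13159161-13175338, plus strand), was at 461 to 602 CPM in CreER and higher in every O4AID library, at 838, 822, 876, 865 and 968. Of these 24 genes 8 had all O4AID libraries below and 7 above.

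Metabolic genes also went both ways. *Msmo1*, an enzyme of cholesterol synthesis, stood at 87.8 to 127 CPM in CreER and at 264 to 379 in O4AID. The neighbouring metallothionein genes *Mt1* and *Mt2*, whose products bind metal ions, differed from each other. *Mt2* stood at 52.2 to 69.6 CPM in CreER and 1.90 to 3.48 in O4AID, whereas *Mt1* stood at 178 to 214 in CreER and at 158, 211, 286, 288 and 485 in O4AID, which overlap.

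The genes furthest apart between the lines lay far outside the chromosome's own displacement. *Zfp423* stood at 34.1 to 62.5 CPM in CreER and at 1.41, 1.57, 1.38, 2.05 and 1.44 in O4AID, a difference of -4.64. *Slc5a5* stood at 10.1 to 27.7 CPM in CreER and at 0.296, 0.451, 0.256, 0.564 and 0.349 in O4AID (-4.25), and *Efnb2*, a ligand of Eph receptors, at 33.4 to 67.1 and 3.02 to 4.42 (-3.32). All 3 were low throughout the O4AID time course.

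In the other direction, *Kbtbd11* (chr8:15011025-15033333, plus strand) and *Myom2*, which encodes a protein of the muscle M-band (chr8:15057653-15133541, plus strand), are neighbours in the set. *Myom2* stood at 1.60 to 6.04 CPM in CreER and at 41.7, 42.9, 64.8, 87.8 and 57.9 in O4AID (4.03), and *Kbtbd11* at 0.0391 to 0.442 and at 20.3, 15.9, 11.3, 10.7 and 5.305 (4.00). *Tdrp* (chr8:13952008-13975032, minus strand) stood at 15.02 to 19.1 CPM in CreER and at 168, 160.2, 97.6, 107 and 132 in O4AID (2.96). The lincRNA genes *Gm26905* and *Gm45322* stood at most at 0.430 and 0.150 CPM in CreER but at 717 to 912 and 68.7 to 79.8 in O4AID, and were not tested in CreER. The differences of *Zfp423*, *Slc5a5*, *Kbtbd11*, *Gm26905* and *Gm45322* depend on the 0.5 CPM added.

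The change over time within CreER asked whether chromosome 8 genes responded to loss of *Pou5f1* as other genes do. By edgeR's quasi-likelihood test at a Benjamini-Hochberg adjusted p under 0.05, of 18969 genes 0.406%, 8.66%, 21.7% and 36.8% differed from 0 h at 12, 18, 24 and 36 h, and 674 of the 676 members were tested. At 12 h 2 members were higher, *Msmo1* (0.28, SE 0.045, adjusted p 0.00215) and *Tubb3* (0.23, SE 0.044, adjusted p 0.00907), and 1 lower, *Hmgxb4* (-0.19, SE 0.042, adjusted p 0.0361), which was named after its value was seen. These are 0.297% and 0.148% of members, against 0.377% and 0.209% of all tested genes past the count minimum.

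At 18 h 45 members were higher (6.68%, against 6.48%) and 31 lower (4.60%, against 5.83%). At 24 h 104 were higher (15.4%, against 13.7%) and 99 lower (14.7%, against 15.1%). At 36 h 156 were higher (23.1%, against 23.2%) and 179 lower (26.6%, against 24.1%). The shares of members were near those of all genes at each time, and the counts at 12, 18 and 24 h moved by over 1.5 times when single libraries were left out (0 to 7 members at 12 h, 22 to 101 at 18 h and 120 to 181 at 24 h). The median change of the members was 0.00, 0.00, -0.01 and -0.01 at the 4 times, and that of the other autosomes 0.00, -0.01, -0.02 and -0.01. Of 674 members 14 (2.08%) were called higher and 6 (0.89%) lower by at least 2-fold at 36 h. The share of all genes past that limit was not computed, so nothing is read from these counts.

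The 6 largest rises at 36 h were led by *Lzts1*, a leucine zipper protein described as a tumour suppressor, which rose by 1.86 (SE 0.191, adjusted p 5.97e-09) from 1.84 and 1.32 CPM to 5.47 and 5.90. *Myom2* rose by 1.77 (SE 0.165, adjusted p 8e-10), *Zfp703*, a zinc finger corepressor, by 1.71 (SE 0.318, adjusted p 8.45e-05) and *Cpne2*, a calcium-dependent membrane-binding protein, by 1.46 (SE 0.107, adjusted p 5.89e-12). *Cotl1*, which binds actin, rose by 1.33 (SE 0.061, adjusted p 2.3e-16) from 36.2 and 34.7 CPM to 94.3 and 83.0, and *Slc5a5* by 1.25 (SE 0.087, adjusted p 2.11e-12). In each of these both 36 h libraries lay above both 0 h libraries.

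The largest falls were led by *Zmat4*, a zinc finger protein gene, at -1.71 (SE 0.113, adjusted p 6.89e-13), which fell from 15.5 and 14.7 CPM to 4.65 and 4.54. *Exoc3l* was at -1.25 (SE 0.139, adjusted p 2.69e-08). *Sfrp1*, a secreted inhibitor of Wnt signalling, and *2500002B13Rik* were both at -1.17 (adjusted p 1.99e-11 and 3.46e-10). *Tbc1d9* was at -1.09 (adjusted p 1.21e-12) and *Vegfc*, a growth factor of lymphatic vessels, at -1.03 (adjusted p 1.93e-07).

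By role, RNA processing and translation had 18 of 31 genes lower at 36 h and the other 13 not past the threshold, with a list median of -0.14, as in *Nob1*, a factor of ribosome assembly (-0.20, adjusted p 0.000545). Adhesion, matrix and cytoskeleton had 12 higher and 4 lower of 19, among them the chains of basement membrane collagen *Col4a1* (1.08) and *Col4a2* (0.97). Signalling and transcription factors had 10 higher and 6 lower of 25, and metabolic enzymes and transporters 8 and 3 of 18. Secretory and lysosomal genes had 9 and 5 of 24, telomere and centromere proteins 4 and 2 of 11, ubiquitin and proteasome genes 4 and 2 of 15, mitochondrial genes 4 and 6 of 19, chromatin regulators 2 and 7 of 17, and replication and DNA repair 1 and 7 of 22. Over all members 156 of 674 (23.15%) were higher and 179 (26.56%) lower. The shares of all tested genes past the count minimum were 23.2% and 24.1%. Differences between lists, or between a list and all genes, were not tested.

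Each O4AID time has 1 library, so its changes are described without a test, by the number of genes at least 2-fold from 0 h. At 1.5 h 0 members were 2-fold higher or lower, where 0.0558% and 0.144% of all genes past the minimum were. At 6 h 5 were higher (0.740%, against 0.542%), namely *Zfp703*, *Mmp15*, *Plat*, *Tubb3* and *Adgrg1*, and 3 lower (0.444%, against 0.67%), namely *2500002B13Rik*, *Zfp42* and *Sfrp1*. At 10 h 9 were higher (1.33%, against 1.35%) and 7 lower (1.04%, against 1.32%). At 24 h 18 were higher (2.66%, against 4.0%) and 20 lower (2.96%, against 3.7%). These counts depended on the settings, since the 38 members at 24 h became 25 with 2 CPM added and 19 with a minimum of 5000 reads, and against 1.5 h the 8 at 6 h became 4 and the 16 at 10 h became 9. With that minimum the 8 at 6 h became 5. The median change of members was 0.00, -0.02, -0.03 and -0.06 at 1.5, 6, 10 and 24 h and that of the other autosomes -0.01, -0.02, -0.04 and -0.06.

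The genes furthest above their 0 h level in O4AID were led by *Zfp703*, which stood at 3.48, 5.84, 14.5, 19.5 and 31.7 CPM from 0 to 24 h, and *Mmp15*, a membrane-bound matrix protease, at 7.995, 6.96, 18.9, 26.1 and 67.0. *Plat*, tissue plasminogen activator, went from 1.18 to 6.72 CPM, *Kifc3*, a kinesin motor, from 3.05 to 12.7, *Psd3* from 6.13 to 21.2 and *Col4a2* from 34.3 to 110.6. *Zfp703*, *Mmp15*, *Plat*, *Kifc3* and *Col4a2* were also called higher in CreER at 36 h, with 1.71, 1.09, 1.19, 0.34 and 0.97, while *Psd3* was at -0.24 (adjusted p 0.127).

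**Figure D5:**
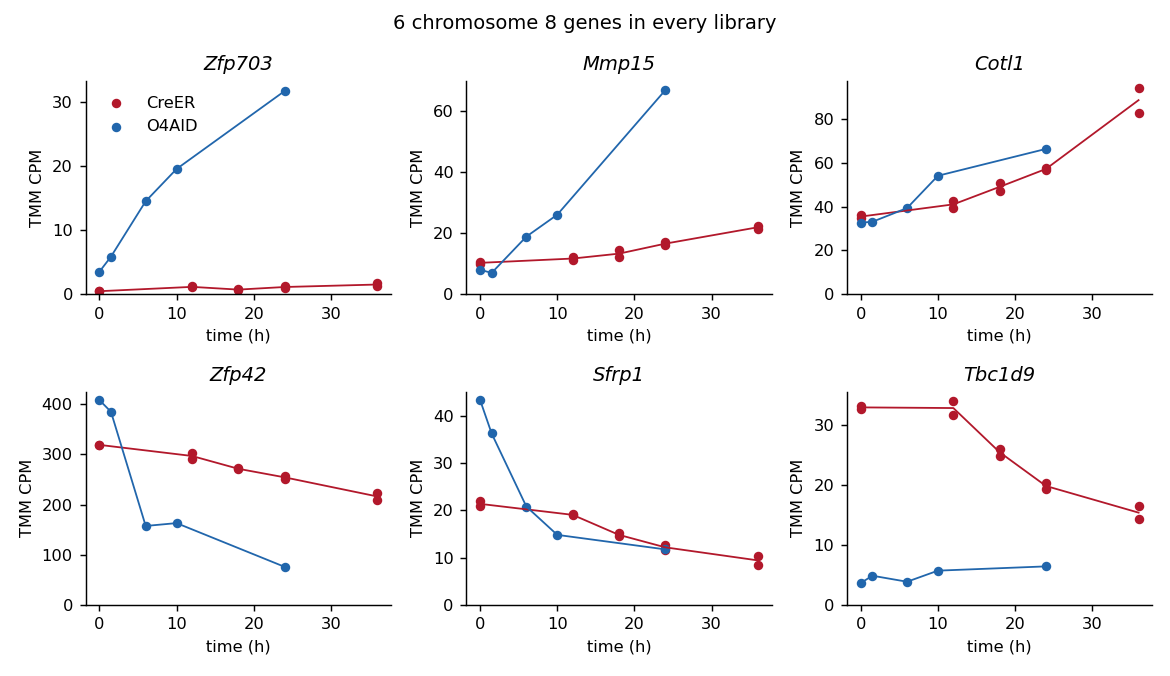
Level (CPM after TMM scaling, from 0) of 6 chromosome 8 genes against time in every library, with CreER in red (2 points at each time, line through the means) and O4AID in blue (1 point at each time). *Zfp703* and *Mmp15* end at 31.7 and 67.0 CPM in O4AID, *Zfp42* ends at 75.7, and *Tbc1d9* goes from 33.1 and 32.7 to 16.4 and 14.3 in CreER and from 3.62 to 6.40 in O4AID.

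The genes furthest below their 0 h level in O4AID were led by *Zfp42*, with 408, 385, 157, 163 and 75.7 CPM, against 318 and 320 at 0 h and 223 and 210 at 36 h in CreER (-0.56, adjusted p 7.97e-12). *Sfrp1* went through 43.4, 36.3, 20.8, 14.8 and 11.7 CPM, and in CreER stood at 21.9 and 20.9 CPM at 0 h and 10.4 and 8.47 at 36 h. *Apela*, a peptide hormone gene, went from 83.2 to 22.6 CPM and was also called lower in CreER at 36 h (-0.92, adjusted p 1.73e-08). *Sox1*, a transcription factor of neural progenitors, went from 9.02 to 1.88 CPM in O4AID, and in CreER rose by 0.73 at 36 h (SE 0.15, adjusted p 0.000284) from 3.12 and 3.34 CPM to 5.16 and 5.62. *Kbtbd11* and *2500002B13Rik* completed the 6 largest, from 20.3 to 5.305 and from 8.15 to 2.14 CPM.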

How the data were processed

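RNA was sequenced by the authors as directional paired-end libraries after depletion of ribosomal RNA. Per the labels and the study's methods, reads were trimmed with Trim Galore (0.1.4), aligned to GRCm38/mm10 with TopHat2 (2.1.0, default settings) and counted per gene with featureCounts (1.5.1) on an Ensembl annotation. The same steps are given for both lines, and the counting options for strand and for reads matching several places were not given in the sources used here. The deposited files hold raw counts per gene for 15 libraries, and the deposited normalised table was not used. Entries without a gene symbol held 0.0412% of the reads. Chromosome, span and strand came from the count files, and transcript sequences from GENCODE vM21 on GRCm38.

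Counts were scaled by TMM (edgeR 4.0.16, R 4.3.3) and expressed as CPM. Line differences were the mean log2(CPM + 0.5) of the 5 O4AID libraries minus that of the 10 CreER libraries and were not tested. CreER times were tested with the edgeR quasi-likelihood method over the 10 CreER libraries, with filterByExpr and Benjamini-Hochberg adjustment at 0.05. On simulated CreER counts the test was checked for recovery of known changes. O4AID times were differences from the 0 h library. A gene had a copy when a processed pseudogene aligned to it over at least 0.7 of its length with at least 80% identity (blastn). Replicate libraries differed by more than counting error, with a chi-square of 3.66 to 8.94 per degree of freedom, and were kept as separate samples. Counting error is the only error covered by a single library.

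The members, role lists, marker lists and rules were chosen with earlier results of these data known. Genes named were the 10 highest and 10 lowest line differences, the 6 largest rises and falls in CreER at 36 h (adjusted p under 0.05, same direction in both replicates) and in O4AID at 24 h (same direction at 6, 10 and 24 h), genes of the role lists, genes at the count minimum, the first and last member, the member nearest each window median, and the 10 highest per kilobase. *Hmgxb4* and *D130040H23Rik* fell outside this rule, as did *B3gnt3*, *Tom1*, *Rpl10-ps5* and *Gm6284*, and were chosen after their values were seen. Alternatives covered scaling, count minimum, pseudocount, overlapping genes, length, level, libraries left out, and for CreER the replicate block, DESeq2 (1.42.0) and filters. Python 3.11.15, numpy and pandas were used. Some results on genes with copies are not reported here.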

Additional observations from a re-analysis of the deposited data

Results flagged for a closer look

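In 3 genes the change at 24 h went opposite ways in the lines, with both CreER replicates on one side of both 0 h libraries and the O4AID library at least 1.5-fold on the other side. The difference itself was not tested, since O4AID has 1 library at each time, and the treatments and lines differ. *Tbc1d9* was at -0.73 in CreER (SE 0.069, adjusted p 4.6e-09 by edgeR's quasi-likelihood test), from 33.1 and 32.7 CPM to 19.3 and 20.3, and at 0.74 in O4AID, from 3.62 to 6.40. *Tubb3*, a tubulin of neurons, was at 0.36 in CreER (SE 0.044, adjusted p 3.76e-07), from 143 and 141 CPM to 180 and 185, and at -1.72 in O4AID. Its O4AID libraries stood at 14.03, 14.6, 31.5, 32.6 and 3.91 CPM, so that it lay above its 0 h level at 6 and 10 h and below it at 24 h. *Gdf15*, a stress-responsive secreted factor, was at 1.02 in CreER (SE 0.191, adjusted p 0.000241), from 1.95 and 1.42 CPM to 3.49 and 3.23, and at -1.0 in O4AID, where it stood at 5.74, 8.53, 8.24, 7.40 and 2.62 CPM.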

How the results depend on the processing

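Chromosome 8 had the lowest median of the 19 autosomes and all 13 of its windows below the other autosomes under every alternative run. Relative to the other autosomes the difference over all times (-0.599) was -0.553 with a minimum of 5000 reads, -0.608 with 0.1 CPM added, -0.56 with 2 CPM added, -0.608 with the 11 genes put back, -0.581 in coding genes without a copy and -0.614 to -0.586 with single libraries left out. At 0 h (-0.617) it was -0.589 with a minimum of 300 reads, -0.598 with 5000, -0.581 with 2 CPM added, -0.606 adjusted for transcript GC and -0.627 to -0.614 with single libraries left out. Before that subtraction the values depended more on the scaling. At 0 h (-0.371) they were -0.437 with RLE scaling, -0.575 with total counts, -0.402 with TMM without chromosome 8, -0.447 and -0.337 with minima of 300 and 5000, -0.353 with 2 CPM added, -0.581, -0.578 and -0.573 adjusted for gene length, level and GC, -0.351 in coding genes without a copy and -0.383 to -0.37 with single libraries left out. Over all times (-0.374) the same alternatives gave -0.425, -0.492, -0.413, -0.465, -0.317, -0.349, -0.556, -0.568, -0.56, -0.317 and -0.395 to -0.358, and -0.387 without overlapping genes. The adjustments for length, level and GC also moved the other autosomes. Relative to these, the adjusted values were -0.614, -0.61 and -0.606 at 0 h and -0.591, -0.601 and -0.598 over all times. The adjustments for GC and the limit to genes without a copy were chosen after seeing the data.

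Counts of members called by edgeR in CreER were 3, 76, 203 and 335 at 12, 18, 24 and 36 h. At 12 h the count was 8 with no filter, 7 without the first 0 h replicate, 1 without the second, 0 without the first 12 h replicate and 1 without the second. At 18 h it was 50 with the 4 libraries alone, 47 with DESeq2, 101 and 32 without the first and second 0 h replicate, and 22 and 44 without the first and second 18 h replicate. At 24 h it was 123 and 120 without the first and second 24 h replicate, up to 181 without a 0 h replicate, and 137 with DESeq2. At 36 h it was 272 to 315 with single libraries left out and 273 with DESeq2. Replicate numbers did not pair the libraries (correlation of deviations -0.0783 to 0.0691), and with a replicate block the counts were 3, 78, 203 and 339. Members at least 2-fold from 0 h in O4AID numbered 8 at 6 h (5 with a minimum of 5000, 4 against 1.5 h), 16 at 10 h (9 against 1.5 h) and 38 at 24 h (25 with 2 CPM added, 19 with a minimum of 5000). The cause of these shifts was not tested.

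Among the single genes named, 608 values under alternatives stayed within their spread or on their side of the threshold, 36 moved and 0 reversed. Those that moved were in part genes near 0 in one line, such as *Slc5a5* at -2.94 and *Zfp423* at -3.89 with 2 CPM added. Adding the reads of copies was not among these alternatives. It changed the sign of the line difference in some named genes with copies, among them *Tom1*, *Smarca5* and *Rfwd3*. O4AID has 1 library at each time and no replicate error, DNA copy number was not measured, and genes with near-identical copies cannot be counted apart with certainty.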
